A study of Mus musculus with 4 samples.

Results

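Nrn1, Prelid2, Slc15a2, Kcnk5, Igsf23, Srfbp1, Lysmd2 and Ift80 are 8 genes whose transcript level differed more than 2-fold between Nr4a-TKO and WT CD4+ T cells in the same direction before culture and after 3 h of culture. They were picked for that difference on the same arrays that are described here, so the genotype differences below are descriptions of the choice and carry no test. Among 19780 genes that were well above the local background on all 4 arrays, 71 met the same condition, 44 of them higher and 27 lower on the Nr4a-TKO arrays, and the 8 are named genes from these 71. In all, 32535 genes had values. Nrn1, Prelid2 and Slc15a2 were higher in Nr4a-TKO, and the other 5 were lower.

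The study asked how the Nr4a nuclear receptors shape the differentiation of naive CD4+ T cells into induced regulatory T cells (iTreg cells). RNA of 4 samples was hybridised to single-colour Agilent mouse arrays: 1 for naive T cells of either genotype and 1 for either genotype after 3 h of iTreg culture. Nr4a-TKO cells carried floxed Nr4a1 and Nr4a2 alleles and lacked Nr4a3, and the Cre used is not given in the sources used here. The mice, on the C57BL/6J background, also carried a Foxp3 reporter allele (hCD2-hCD52 knock-in). Per the labels, naive cells were sorted as CD4+, CD25 low, CD44 low, CD62L high and Foxp3- from irradiated Rag2-/- recipients of bone marrow. The Nr4a-TKO cells came from recipients of marrow mixed from Ly5.1 WT and Ly5.2 Nr4a-TKO donors and the WT cells from recipients of WT marrow, so genotype and kind of chimera cannot be told apart. For iTreg culture, cells were stimulated for 3 h with anti-CD3 (2 µg/ml) and anti-CD28 (0.5 µg/ml) in the presence of IL-2 (10 ng/ml), TGF-β1 and antibodies to IFN-γ and IL-4 (1 µg/ml each). With 1 array in a condition there is no spread between mice, no p-value is given, and a lower number of cells of one type cannot be told apart from less RNA in each cell.

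Nr4a1, Nr4a2 and Nr4a3 encode orphan nuclear receptors that are switched on within hours of T cell receptor stimulation and bind DNA as monomers at an element named NBRE. The 8 genes do not form a pathway. Nrn1 encodes neuritin, a small GPI-anchored protein first described in neurons and also found in anergic and regulatory T cells. Slc15a2 and Kcnk5 encode membrane transport proteins, a proton-coupled peptide transporter and a potassium channel of the tandem-pore family. Prelid2 belongs to a family of mitochondrial lipid carriers, Ift80 encodes a subunit of the intraflagellar transport machinery that builds cilia, Srfbp1 encodes a protein that binds serum response factor, and Igsf23 and Lysmd2 are known mainly by their immunoglobulin and LysM domains.

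Sequences are shown for the probes that carry a distinction made below and that cross an exon junction, since their coordinates on mm9 span more than the 60 bases of the probe. The Slc15a2 probe nearest the 5′ end (chr16:36775747-36781681, minus strand) did not separate the genotypes, and the next 2 (chr16:36757315-36757897 and chr16:36756441-36757232, minus strand) did. The Igsf23 probe (chr7:20523598-20524579, minus strand) is the one measurement of that gene. They read, 5′ to 3′:

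Slc15a2, 5′ probe: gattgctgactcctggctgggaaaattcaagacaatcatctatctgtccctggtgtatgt

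Slc15a2, first probe that separated the genotypes: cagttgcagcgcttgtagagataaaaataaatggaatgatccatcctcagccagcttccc

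Slc15a2, second probe that separated the genotypes: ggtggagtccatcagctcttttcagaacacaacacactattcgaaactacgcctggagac

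Igsf23 probe: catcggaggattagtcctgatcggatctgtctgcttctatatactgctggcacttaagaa

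Promoters of 3 of the 8 genes, Igsf23, Kcnk5 and Slc15a2, were taken from the RefSeq promoter table of GRCm38.p6, with 4 starts, 2 of them for Igsf23. Prelid2 and Srfbp1 were left out of this search, and Nrn1, Lysmd2 and Ift80 had no promoter in the table. The 250 bases before each start were searched on both strands for NBRE (AAAGGTCA), an Ets core (AGGAAG), AP-1 (TGANTCA) and CRE (TGACGTCA). NBRE was in 1 of the 4 promoters, against 1.34% of all 32851 promoters, and AGGAAG was in the same 1, against 29.5%. TGANTCA and TGACGTCA were in none of the 4, against 6.75% and 1.55%. The promoter with matches lies before one start of Igsf23 (chr7:19950744-19950993, minus strand). It is shown because NBRE is the element of the deleted factors, with capitals for the NBRE letters on the opposite strand, 72 to 65 bases before the start, and for the Ets letters on the opposite strand, 7 to 2 bases before it. A match is a description of the letters and not a binding site.

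Igsf23 promoter: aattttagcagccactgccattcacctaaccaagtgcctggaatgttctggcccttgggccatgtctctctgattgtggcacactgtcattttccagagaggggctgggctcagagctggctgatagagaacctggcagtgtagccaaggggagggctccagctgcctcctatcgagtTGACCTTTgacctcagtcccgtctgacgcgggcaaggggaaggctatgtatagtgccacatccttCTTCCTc

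Levels are log2 normalized intensities of the probe of each gene that was brightest on average. The scanner's processed intensities, in arbitrary units before normalization between arrays, are given for some probes. Between 64.9% and 67.6% of the probes were well above background on an array, and no spot was saturated. Probes printed on several spots had an SD of 0.11 to 0.13 within an array, which makes 0.17 to 0.19 for a log2 difference between 2 arrays and covers the arrays alone. Some values were not well above background. Those under the lowest level read reliably on their array, between 3.07 and 3.45, were given that level, and those over it were used as read. In either case, a difference that uses such a value is given as a lower bound on the size. Levels of different genes are not compared, since probes differ in brightness.

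The targeted genes were read as a check of the labels, and their transcripts were not absent from the arrays labelled Nr4a-TKO. Nr4a1 read 7.04 on the WT naive T array and 8.38 on the one labelled Nr4a-TKO naive T, and 11.33 and 11.81 at 3 h. Both Nr4a2 probes were also brighter on the array labelled Nr4a-TKO at 3 h, by 1.38 and 1.37. The Nr4a3 probe whose coordinates cross an intron differed by -1.85 at 3 h and 0.08 in naive T. Whether the probes lie in the deleted parts is not given in the sources used here, and 2 of the 3 Nr4a3 probes at 3 h (-1.46 and -1.85) were the ones that went the way of the label. Of 7 T cell markers, 7 were well above background on each array and none was past 2-fold between the genotypes. The 8 B cell markers were also well above background on each array, so this is no check of the sort. None of the 8 genes lies on the chromosome of Nr4a1, Nr4a2 or Nr4a3.

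By the smaller of its 2 genotype differences, Nrn1 was the most raised of the 19780 genes. It read 5.93 on the WT and 9.55 on the Nr4a-TKO array of naive T, and 7.90 and 11.29 at 3 h. Both Nr4a-TKO values lay above both WT values, by 3.62 in naive T (12.3-fold) and 3.39 at 3 h (10.5-fold). In processed intensity, the array's own unit, these were 59 against 689 and 290 against 2990. Nrn1 went up over the 3 h in both genotypes, by 1.97 in WT and 1.74 in Nr4a-TKO, so the uncultured Nr4a-TKO cells already stood above the WT cells at 3 h. The second Nrn1 probe, which matches a predicted transcript, was dimmer and showed smaller differences of 1.51 and 1.93 in the same direction. The files place only 5 bases of the brighter probe, at chr13:36817491-36817495, and the second at chr13:36822427-36822486, both on the minus strand of mm9.

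Prelid2 was dim on the WT arrays and brighter on the Nr4a-TKO arrays. Its levels were 5.17 and 7.90 on the WT and Nr4a-TKO arrays of naive T, and 5.92 and 9.26 at 3 h. The difference was 2.73 in naive T (6.64-fold) and 3.35 at 3 h (10.2-fold). Its second probe, 5′ of the first, gave 2.55 and 2.60, so the step up in Nr4a-TKO was seen at 2 places of the transcript. Prelid2 rose over the 3 h by 1.36 on the Nr4a-TKO arrays at the probe that stands for it, against 0.74 on the WT arrays, while its other probe gave 0.75 and 0.70, neither past 2-fold.

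Slc15a2, also named PEPT2, had the highest genotype difference of the 19780 genes at 3 h. It read 5.42 on the WT and 8.71 on the Nr4a-TKO array of naive T, and 4.0 and 8.28 at 3 h. In processed intensity it went from 34.7 to 11.6 over the culture in WT and from 319 to 293 in Nr4a-TKO. The difference was thus 3.29 in naive T (9.78-fold) and 4.27 at 3 h (19.4-fold), and the widening came with a fall of the WT level (-1.42) beside -0.44 in Nr4a-TKO. This WT change depended on the probe and the background correction: the other measured probes changed by -0.21, -0.23 and -0.33 in WT, and the brightest by -0.49 with an offset of 50 and -0.77 without background correction.

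**Figure D1:**
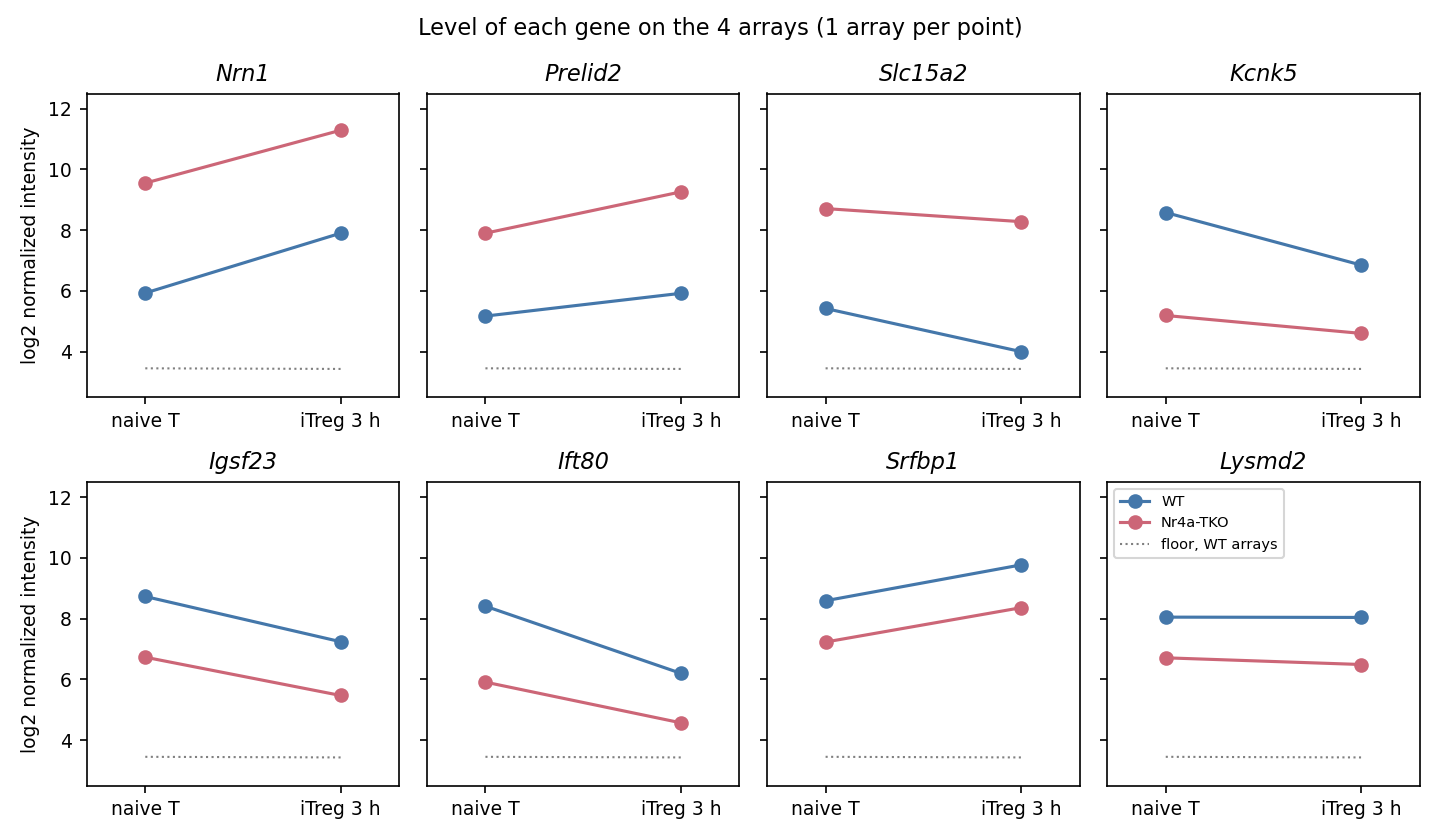
Log2 normalized intensity (vertical axis) of each of the 8 genes in naive T and iTreg at 3 h, 1 array per point, with WT in blue, Nr4a-TKO in red and the lowest reliable level of the WT arrays dotted. Nrn1, Prelid2 and Slc15a2 lie higher in Nr4a-TKO at both stages and the other 5 lower, and the lines of the 2 genotypes do not cross for any gene.

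The 7 probes of Slc15a2 did not tell one story along the gene. Ordered from the 5′ end, the first gave 4.98 and 5.19 on the WT and Nr4a-TKO arrays of naive T, a difference of 0.21, and 0.22 at 3 h. The second was well above background on the WT naive T array alone, with a bound of -0.95, and the third gave -0.25 and -0.08. Neither of the 2 measured on both arrays was past 2-fold, and the full size at the second is not known. The 4 probes nearer the 3′ end, among them the 2 shown above, were all higher in Nr4a-TKO. The fourth gave 1.39 and 1.46, the fifth 2.82 and a bound of 2.63, and the sixth 1.55 and a bound of 1.75. The seventh, which stands for the gene, gave 3.29 and 4.27. The break lies between chr16:36772599-36772658 (probe 3) and chr16:36757315-36757897 (probe 4) on mm9. Some of these probes were designed on different transcripts of the gene, and which transcripts were present was not tested. With the mean of the 7 probes in place of the brightest, the differences were 1.07 and 1.5.

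**Figure D2:**
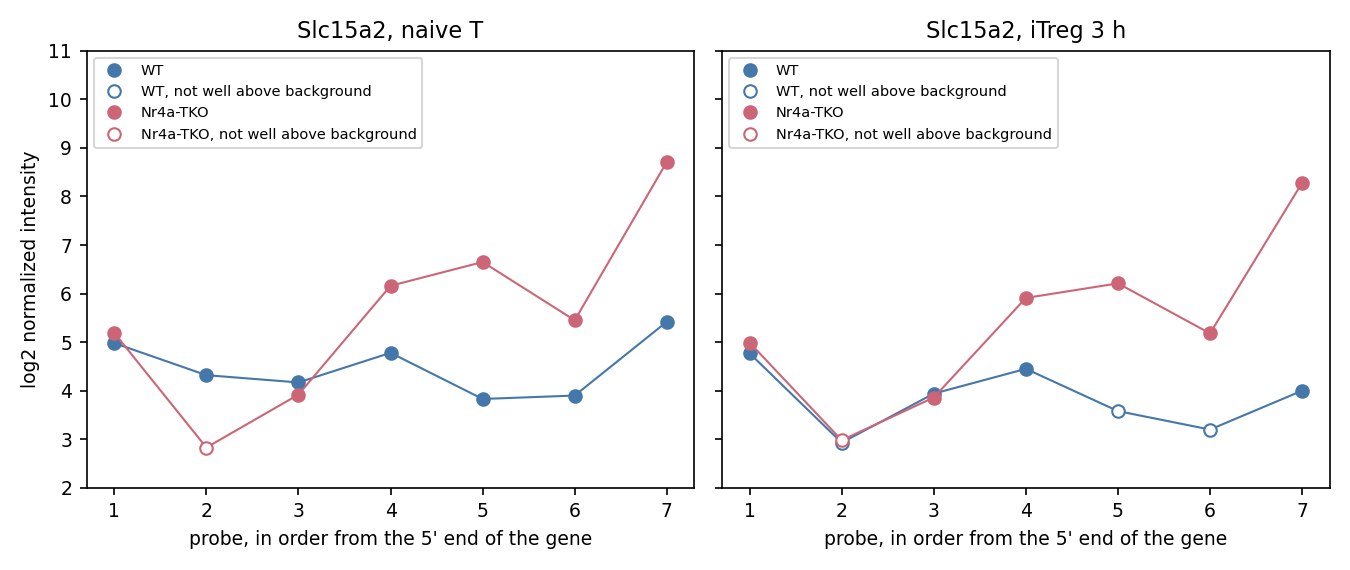
Log2 normalized intensity (vertical axis) of the 7 Slc15a2 probes in order from the 5′ end of the gene, in naive T (left) and iTreg at 3 h (right), with open circles for values not well above background. The WT and Nr4a-TKO points lie within 0.25 of each other at probes 1 and 3, and Nr4a-TKO is higher at probes 4 to 7.

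Kcnk5 (TASK-2) was the most strongly lowered of the 8 in naive T, with 1 probe at chr14:20959684-20959743 of mm9. It read 8.58 on the WT and 5.19 on the Nr4a-TKO array of naive T, and 6.85 and 4.60 at 3 h, or 320, 28.8, 114 and 17.8 in processed intensity. The genotype difference was -3.39 (10.5-fold) in naive T and -2.25 (4.75-fold) at 3 h. It narrowed by 1.14, against an SD of 0.25 for such a change from repeated spots, as WT changed by -1.73 and Nr4a-TKO by -0.59 over the culture. At 3 h WT cells were still above the Nr4a-TKO cells before culture.

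Igsf23 read 8.73 on the WT and 6.73 on the Nr4a-TKO array of naive T, and 7.24 and 5.47 at 3 h. It was lower in Nr4a-TKO at both stages, at -2.0 (3.99-fold) and -1.77 (3.42-fold), and fell over the culture in both genotypes, with changes of -1.49 and -1.27. The gene with the most similar course over the 4 arrays was another of the 8, Ift80, at a Euclidean distance of 0.54 between the log2 levels centred on their means.

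Srfbp1 and Lysmd2 had the smallest differences of the 8. Srfbp1 read 8.59 on the WT and 7.23 on the Nr4a-TKO array of naive T, and 9.77 and 8.36 at 3 h. It was -1.36 and -1.41 apart, and its second probe gave -1.07 and -0.94, the latter short of 2-fold. Srfbp1 was the one gene lowered in Nr4a-TKO that rose over the culture, by 1.17 in WT and 1.13 in Nr4a-TKO. Lysmd2, with a probe at chr9:75485405-75485464, read 8.05 and 6.71 in naive T and 8.04 and 6.49 at 3 h. It hardly moved with culture (-0.02 in WT and -0.22 in Nr4a-TKO) and differed by -1.34 and -1.55 between genotypes.

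Ift80 read 8.41 on the WT and 5.91 on the Nr4a-TKO array of naive T, and 6.20 and 4.57 at 3 h, or 325, 57.6, 79.5 and 19.6 in processed intensity. It was thus apart by -2.50 (5.64-fold) and -1.64 (3.11-fold). It also had the steepest fall of the 8 over the culture in WT (-2.20), beside -1.35 in Nr4a-TKO. Its second, dimmer probe gave -1.45 in naive T and a bound of -0.89 at 3 h. With a normexp offset of 50, which compresses dim values, the 3 h difference was -0.75 and no longer past 2-fold.

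The low Ift80 level on the Nr4a-TKO arrays did not stand alone on its chromosome. In the order of the probe coordinates, 9 neighbouring probes with 6 named transcripts, over 167.5 kb of chromosome 3 (68671839 to 68839309, mm9), were all lower in Nr4a-TKO at each stage at which they could be measured. The naive T differences of 8 of these probes lay between -2.50 and -1.45 (median -1.87), and the 3 h differences of the 9 between -2.23 and -0.89 (median -1.07), bounds included. The run was noticed after the values were seen, and was taken as consecutive probes more than 0.8 apart in one direction. Whether the genomic DNA of this stretch differs between the mice was not tested.

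Within the run, Smc4, a core subunit of the condensin complex, was well above background on all 4 arrays with each of its 3 probes. They gave -1.97, -2.31 and -2.07 in naive T and -0.93, -1.07 and -0.92 at 3 h. The brightest on average, 128.6 kb from the Ift80 probe, read 9.54 on the WT and 7.57 on the Nr4a-TKO array of naive T, and 7.97 and 7.05 at 3 h. Trim59, a RING-type ubiquitin ligase gene read from the opposite strand, followed with -1.77 and -1.0. AW822189, an unnamed transcript, gave -1.62 and a bound of -1.70, ENSMUST00000166328 a bound of -1.45 and then -1.71, and 1110032F04Rik a bound of -2.23 at 3 h alone. The transcripts lie on both strands.

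By its definition, the run ends where the next probe falls short of the limit of 0.8. The values beyond its edges are therefore a description. The next probe on the lower side, 46.2 kb from Ift80, gave a bound of 0.43 in naive T and -0.11 at 3 h, and the next on the upper side, 152.4 kb away and just past Trim59 at 142.7 kb, gave -0.32 and -0.07. The 12 probes outside the run within 500 kb had naive T differences between -0.61 and 0.43 and 3 h differences between -0.49 and 0.29, with medians of -0.07 and -0.08. Il12a, the p35 chain of interleukin 12, and Kpna4, an importin, were among them at 0.17 and -0.28 in naive T. Of 41750 placed and measured probes on the arrays, no other run of this kind was as long, the next having 6 probes. That ranking holds for the limit of 0.8, which was chosen after the values of the run were seen, so nothing is read from it. At the 2-fold threshold the run is broken at 3 h by 2 Smc4 probes (-0.93 and -0.92). The second Ift80 probe, with a bound of -0.89, is not shown to pass it either.

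**Figure D3:**
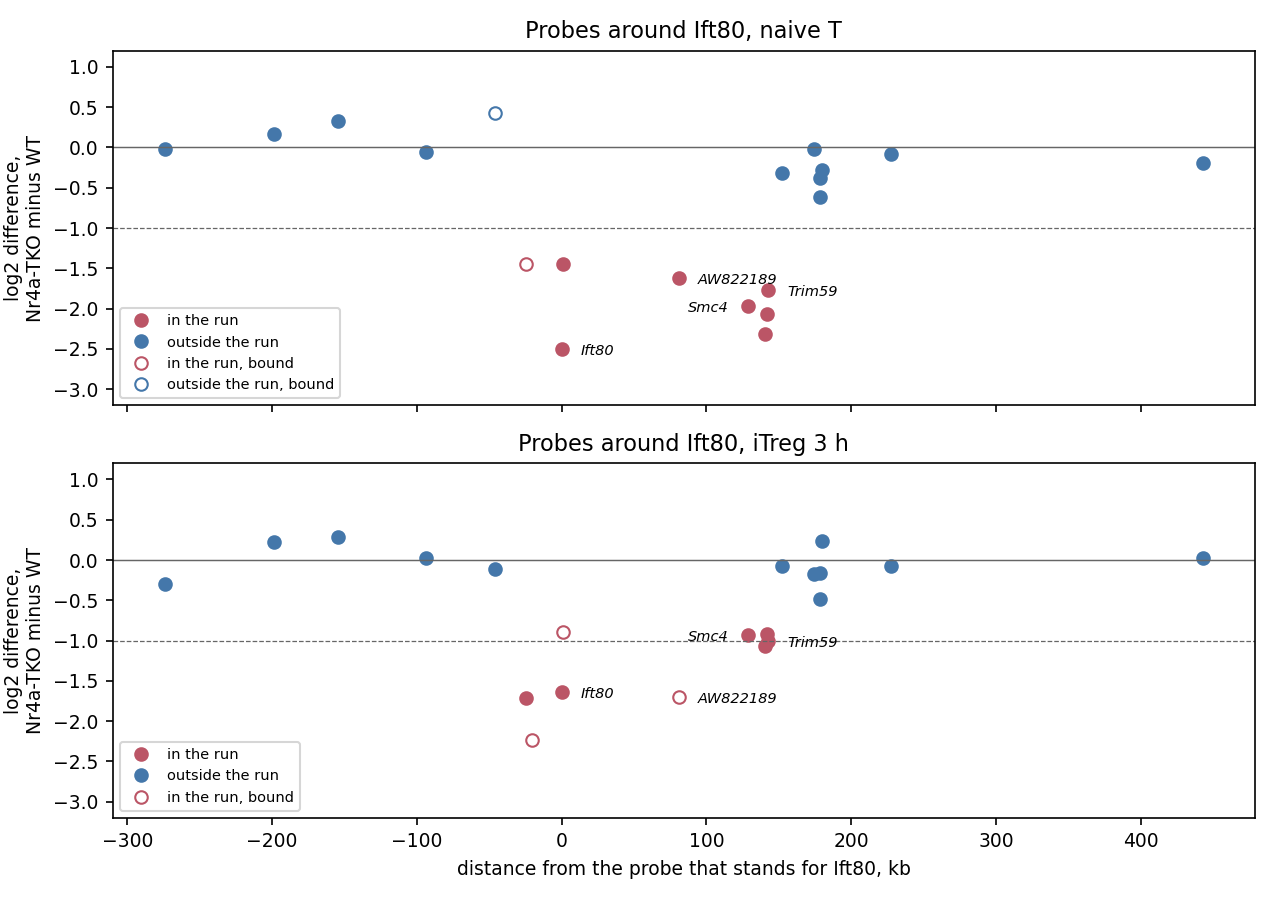
Log2 difference, Nr4a-TKO minus WT (vertical axis), of every measured probe within 500 kb of the Ift80 probe against its distance in kb, in naive T (top) and iTreg at 3 h (bottom), with open circles for bounds and the 2-fold line dashed. The 9 probes of the run, from ENSMUST00000166328 to Trim59, lie between -2.50 and -0.89, and the 12 on either side lie between -0.61 and 0.43.

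The other 7 genes had no such run of neighbours. Beside Nrn1, Gm38636 at 1.9 kb had a bound of 1.00 in naive T and was higher in Nr4a-TKO by 1.68 at 3 h, at levels of 5.51 or less. Beside Srfbp1, a probe of Lox at 26.6 kb was well above background on the WT array at 3 h alone, with a bound of -1.47. Read by the brightest probe of each gene, no other gene within 1 Mb of Srfbp1 was past 2-fold lower at 3 h. Within 1 Mb of Nrn1, Prelid2, Slc15a2, Kcnk5, Igsf23, Srfbp1 and Lysmd2, at most 1 other gene was past 2-fold in the member's direction at both stages. Of the 32 genes that flank all 8, with 2 on each side, 4 of 29 measured were past 2-fold in naive T and 5 of 30 at 3 h. Over all genes, 1.93% were higher and 1.69% lower in naive T, and 1.74% and 1.94% at 3 h. ENSMUST00000166328 and AW822189 at both stages, Smc4 in naive T and 1110032F04Rik at 3 h belong to the run around Ift80. The rest were Gm38636 at both stages and, at 3 h, Cd86 (-1.31), 134.9 kb from Slc15a2.

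Set against all genes, the ranks of the 8 ran from the first place to place 81. Among the 19780 genes, Nrn1 was in place 3 of the genes higher in Nr4a-TKO in naive T and in place 3 at 3 h. Slc15a2 was in place 8 and then 1, and Prelid2 in place 17 and then 4. Of the lowered genes, Kcnk5 took place 3 in naive T and 17 at 3 h, Ift80 13 and 52, Igsf23 26 and 40, Srfbp1 78 and 74, and Lysmd2 81 and 60. Ordered by the smaller of the 2 differences, Nrn1 and Kcnk5 came first in their directions.

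The size of the background gives the scale of these counts. In naive T, 1.93% of 23113 genes lay over 2-fold higher in Nr4a-TKO and 1.69% over 2-fold lower, and at 3 h 1.74% and 1.94% of 23502. Higher at both stages were 0.222% of the 19780 genes and lower at both 0.137%. The 3 higher and 5 lower genes pass these thresholds by choice, so nothing is read from their number. Of the 8, Lysmd2 lay nearest the threshold, with its smaller size at 1.34. Of all genes, the nearest outside it were Trim59 (-1.77 and -1.0) and Pmaip1 (1.29 and 0.99).

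**Figure D4:**
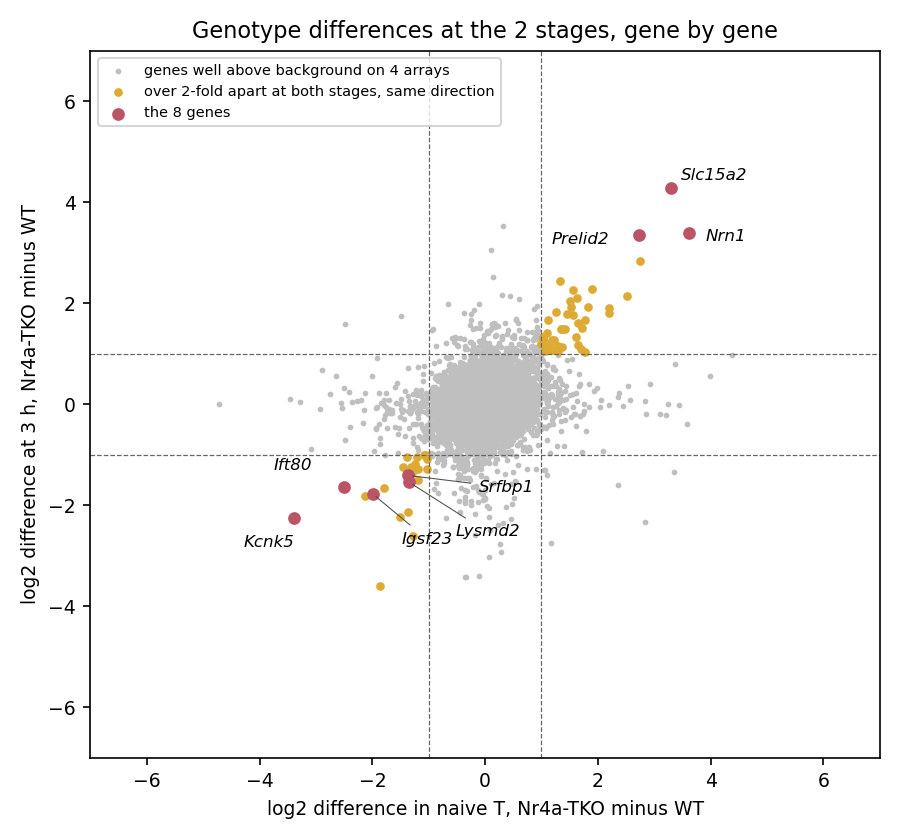
Log2 difference, Nr4a-TKO minus WT, in naive T (horizontal axis) and at 3 h (vertical axis) for the 19780 genes well above background on all 4 arrays, with 2-fold lines dashed. The 71 genes past 2-fold in the same direction at both stages are in yellow, with the 8 in red, and Slc15a2, Nrn1 and Prelid2 lie at the far upper right.

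The change over the 3 h is described next. In WT, 2 of 8 rose more than 2-fold (Nrn1 and Srfbp1) and 4 of 8 fell (Slc15a2 at its brightest probe, Kcnk5, Igsf23 and Ift80), where 8.4% of all genes measured rose and 8.55% fell. In Nr4a-TKO, 3 of 8 rose (Nrn1, Prelid2 and Srfbp1) and 2 of 8 fell (Igsf23 and Ift80), where 7.78% and 7.99% of all genes did. Both genotypes changed in the same direction for 7 of the 8 genes under every way of processing. Lysmd2 changed too little in WT to have a direction, at -0.02, and 0.11, 0.04 and 0.12 with 75th percentile scaling, cyclic loess and the deposited values, against -0.25, -0.31 and -0.23 in Nr4a-TKO. These changes come from the same 4 values as the genotype differences by which the genes were picked, which ties the changes of the 2 genotypes to each other, so the likeness of direction is a description. At the probes that stand for the genes, the genotype difference widened from naive T to 3 h by 0.98 for Slc15a2 and 0.62 for Prelid2 and narrowed by 1.14 for Kcnk5 and 0.86 for Ift80, while Nrn1, Igsf23, Srfbp1 and Lysmd2 shifted by 0.23 or less, under the SD of 0.25. The shift was 0.05 at the second Prelid2 probe and 0.07, -0.19 and 0.20 at Slc15a2 probes 4 to 6 (at probes 5 and 6 the 3 h value is a bound), and with an offset of 50 the Slc15a2 differences were 2.34 and 2.45.

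Of the 18 probes for the 8 genes, 10 were second or further probes of Nrn1, Prelid2, Slc15a2, Srfbp1 and Ift80. In naive T, 7 of these 10 were past 2-fold in the direction of their gene, and at 3 h 5 of the 9 that could be measured. No probe measured on both arrays was past 2-fold in the other direction, and the second Slc15a2 probe had a bound of -0.95 in naive T. The exceptions in naive T were the 3 probes of Slc15a2 nearest its 5′ end.

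Relatives of the 8 genes were read from lists by family. With 1.93% of all genes over 2-fold higher and 1.69% lower in naive T, and 1.74% and 1.94% at 3 h, nothing is read from a count of 0 in lists this short. Of the other tandem-pore potassium channels, 0 of 9 measured were past 2-fold between genotypes at either stage, with a median of 0.05 in naive T and -0.04 at 3 h. The other peptide transporters of the Slc15 family (0 of 4 and 0 of 3), the other PRELI domain genes (0 of 4 at both stages) and the other LysM domain genes (0 of 3 at both stages) showed none either. The other genes of the IFT-B complex, which Ift80 belongs to, had 0 of 14 past 2-fold in naive T and 0 of 16 at 3 h, with medians of 0.16 and 0.09, and the IFT-A complex 0 of 6 and 0 of 5. The median over all genes was -0.02 in naive T and 0.00 at 3 h.

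A few relatives were apart at one stage. Nrn1l, the one paralog of Nrn1, read 5.98 on the Nr4a-TKO naive T array and was not well above background on the WT one, a bound of 2.24, and differed by -0.31 at 3 h. Igsf5 and Igsf8 had bounds of 1.79 and 1.87 at 3 h. Of the voltage- and calcium-gated potassium channels, Kcna2 was 1.75 higher in naive T and 0.01 apart at 3 h. Of serum response factor and its partners, Elk3 was 1.12 higher at 3 h. Among 11 other measured genes linked to T cell anergy, Izumo1r, the folate receptor 4 gene, was higher at both stages, by 1.37 and 1.49, and Cblb, an E3 ligase, was -1.26 apart at 3 h. The remaining anergy genes were not past 2-fold, Egr2 and Egr3 among them.

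By the distance between levels centred on their means over the 4 arrays, Nrn1 and Prelid2 were nearest to each other, at 1.02, and Ift80 was nearest to both Kcnk5 (0.98) and Igsf23. Slc15a2 was nearest to ENSMUST00000068836 (1.09), Srfbp1 to NAP114820-1 (0.15) and Lysmd2 to Foxp3 (0.25). With 4 arrays, such likeness is a description. Foxp3, the factor that defines regulatory T cells, read 7.41 and 6.10 in naive T and 7.52 and 6.17 at 3 h, although the sort was for Foxp3- cells.

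Some markers of other cells moved with genotype beside the 8 genes. Of 6 regulatory T cell markers, all well above background on the 4 arrays, Foxp3 (-1.31) and Ikzf2 (-1.37) were lower in naive T. At 3 h Foxp3 was lower (-1.35) and Nrp1 higher (1.05). The summed normalized intensity of the 6 was 1540 in WT and 1600 in Nr4a-TKO naive T, and 2630 and 3000 at 3 h. Such sums are led by the brightest probes, here Il2ra in naive T and Tnfrsf18 at 3 h. Of 8 B cell markers, also all well above background, H2-Aa was higher by 1.61 in naive T, and H2-Aa (1.34), H2-Ab1 (1.38) and Cd79a (1.14) at 3 h, with sums of 1230 and 1920 in naive T and 963 and 1910 at 3 h. Ms4a1 was 0.10 and 0.07 apart. Of 6 measured memory T cell markers, S100a4 (-2.16) and Id2 (1.03) were apart in naive T and Cd44 (1.55) and Cxcr3 (1.3) at 3 h, with sums of 4440 and 4790 in naive T and 2140 and 4030 at 3 h. Of 4 measured erythroid markers, Hbb-bt was -1.57 apart in naive T. The naive T, CD8 T, myeloid and NK cell lists had no gene past 2-fold between genotypes. The part of these cells in the levels of the 8 genes was not tested.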

How the data were processed

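Per array, a Feature Extraction 11.5.1.1 file was deposited, with the intensity of each spot, local background, a processed intensity and flags, with probe coordinates on mm9. A log2 table was deposited too. RMA in GeneSpring is what the methods give for it, whereas it holds the log2 processed intensity less a constant per array (6.39, 6.35, 6.58 and 6.5 in the order WT and Nr4a-TKO naive T, WT and Nr4a-TKO at 3 h), which is below the 75th percentile of the probes used here. The 4 arrays shared 1 slide and 1 scan. Arrays at 24 h are not analysed here.

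Here the mean intensities were corrected with normexp (offset 0), quantile-normalized over the 4 arrays and log2-transformed with limma 3.58.1 in R 4.3.3. Control spots and 115 to 160 flagged spots per array were dropped and spots of a probe averaged. Names came from the files or from RefSeq (41700 of 56605 probes by current symbol, 1551 by transcript and 585 by synonym). A difference needed 1 of its 2 arrays well above background, and the threshold was 2-fold. Python 3.11.15, pandas 2.3.3, numpy 2.4.6 and matplotlib 3.10.9 did the rest. Counting was tested on simulated data.

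The 8 genes, the lists and the settings were chosen with earlier results of these data known. Named are the 8 genes with every probe, Nr4a1 to Nr4a3, list genes and flanking genes past 2-fold, the nearest course to each of the 8, and the genes nearest the threshold. The neighbourhoods of Ift80, Nrn1 and Srfbp1, and T cell markers, Ms4a1, Egr2 and Egr3 were named after values were seen. Alternatives were 75th percentile scaling, normexp offset 50, no background correction, cyclic loess, the mean over a gene's probes, the deposited values, both or neither array required above background, and thresholds of 1.5-fold and 3-fold.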

Additional observations from a re-analysis of the deposited data

Results flagged for a closer look

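Igsf8, of the same superfamily as Igsf23, changed in opposite directions over the 3 h, with a log2 change of -1.01 in WT and 1.57 in Nr4a-TKO. It was well above background on the WT array of naive T and the Nr4a-TKO array at 3 h alone, so both values are bounds, and the difference between them was not tested. None of the 8 genes changed past 2-fold in opposite directions.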

How the results depend on the processing

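No paired analysis was possible because each condition had 1 array, and no array could be left out. Of 128 genotype differences of the 8 genes under the 8 other ways of processing, 128 kept their direction. Of 256 values in all, 180 moved by less than the array SD and 76 by more. Requiring both arrays or neither above background could not move any of these values, since the 8 genes were well above background on all 4 arrays. Of the 256, 3 changed sign, all of them the WT change of Lysmd2 (-0.02). It was 0.11 with 75th percentile scaling, 0.04 with cyclic loess and 0.12 with the deposited values. All 8 genes stayed past 2-fold at both stages except Ift80 at 3 h with an offset of 50, which left 7, and 6 passed 3-fold. Genes past 2-fold over the culture in Nr4a-TKO numbered 5 of the 8, but 2 with an offset of 50, 3 without background correction and 1 at 3-fold. In WT they numbered 6, but 3 at 3-fold. The WT number was 5 with an offset of 50, without background correction and with the mean over a gene's probes. The 71 genes apart at both stages became 23 with an offset of 50, 40 without background correction, 276 at 1.5-fold and 18 at 3-fold. Over all genes, those past the threshold in naive T numbered 835, against 188 with an offset of 50, 357 without background correction, 421 with both arrays above background, 1775 with no filter and no floor, 2410 at 1.5-fold and 341 at 3-fold. At 3 h they numbered 866, against 178, 354, 449, 1781, 2454 and 341 under the same settings. Smc4 and Trim59 kept their direction, between -2.12 and -1.31 in naive T and between -1.08 and -0.61 at 3 h, while AW822189 gave -0.81 and -0.40 with an offset of 50. Dim probes limit the sizes: with an offset of 50 the 3 h difference was 2.45 in place of 4.27 for Slc15a2 and -1.15 in place of -2.25 for Kcnk5. With 1 array in a condition, differences between mice, chimeras and sorts cannot be told apart from genotype.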

Other observations

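Runs of neighbouring probes of the kind seen around Ift80 were listed over all chromosomes, by the same limit of 0.8 chosen after the values were seen. Bounds were counted, and a probe with a value at a single stage was counted by that value alone. How many probes of the runs on chromosome 17 were well above background on each array is not given here. There were 5 runs of at least 4 probes. Besides the 9 probes around Ift80 and the 4 of Slc15a2, these were 6 probes of Vmn2r96, Vmn2r97, Gm41538, Vmn2r98 and Vmn2r100 over 948 kb of chromosome 17, lower in Nr4a-TKO, 5 probes of H2-Ab1 and H2-Aa over 16.9 kb of the same chromosome, higher in Nr4a-TKO, and 4 probes of Dnah8, Gm9937 and CA567656 over 107.7 kb of it, also higher.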
